A study of Mus musculus with 57 samples.

Results

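The immediate early response genes examined were *Fos*, *Fosb*, *Jun*, *Junb*, *Egr1*, *Ier2*, *Atf3*, *Dusp1*, *Nr4a1* and *Zfp36*, found by name in the count and TPM tables (TPM is a level per transcript length, scaled to the same total in each library), 10 genes of 56860 rows. Each of the 10 was found once in both tables, and all were followed in 57 bulk RNA-seq libraries of mouse embryos. The study compared wild-type (wt) embryos with embryos homozygous for a *Hoxa5* null allele (*Hoxa5*-/-), in which a neomycin cassette interrupts the homeobox in every cell of the body. All embryos were kept on the 129/Sv background, and the labels name no treatment. One table held trachea, lung and diaphragm at embryonic day E15.5 and lung at E12.5, with 4 wt and 4 *Hoxa5*-/- libraries in each of these contexts, 32 in all. The other held somites at E10.5 with 4 wt and 3 *Hoxa5*-/- libraries, somites at E12.5 with 4 and 4, and iBAT, the brown fat pad between the shoulder blades, at E18.5 with 5 and 5, 25 in all. A somite sample was a block of trunk between the levels C3 and T2, cleared of nervous tissue, limbs and organs, so it holds more than somites. Some tissue was frozen before RNA extraction and some was not, and which libraries came from frozen tissue is not given in the sources used here. The tables differ in read layout, so contexts were compared only within a table. The question was how far these genes differed between replicate libraries, beside how far they differed between genotypes and tissues.

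Immediate early genes are transcribed within minutes of a signal because the factors that start them are already present in the cell and need no new protein. Growth factors, stretch and wounding act on them largely through MAP kinases and serum response factor, while cAMP and calcium act through CREB, and many of their messages are degraded fast. The proteins of *Fos*, *Fosb*, *Jun* and *Junb* pair to form AP-1, *Atf3* encodes a related stress factor, *Egr1* and *Nr4a1* encode a zinc finger factor and an orphan nuclear receptor, and *Ier2* encodes a small nuclear protein. *Dusp1*, a phosphatase of MAP kinases, and *Zfp36*, which speeds the decay of messages with AU-rich elements, act as brakes on the same response. These genes are also known to respond to the handling and dissociation of tissue.

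*Fos*, *Jun*, *Atf3* and *Nr4a1* were among the members high in single libraries, and the 250 bases before the start of each are printed 5′ to 3′ to show what they share and what they do not. The starts are those of a RefSeq promoter table on GRCm38.p6, which held 8 of the 10 members (not *Egr1* and *Ier2*), and each stretch was then placed on GRCm39 by its single exact match. Capitals mark TGACG, the core of the cAMP response element, on either strand (a copy on the other strand reads CGTCA). They also mark TATAAA in *Fos* and GAANNTTC, the unit of the heat shock element, in *Jun*. The stretches lie at chr12:85520414-85520663 (plus strand) for *Fos*, chr4:94940460-94940709 (minus strand) for *Jun*, chr1:190915531-190915780 (minus strand) for *Atf3*, whose last 7 bases are exonic in the authors' annotation, and chr15:101164477-101164726 (plus strand) for *Nr4a1*. The starts used for *Atf3*, *Nr4a1*, *Dusp1* and *Zfp36* lie inside the annotated genes, which have other starts upstream.
Fos: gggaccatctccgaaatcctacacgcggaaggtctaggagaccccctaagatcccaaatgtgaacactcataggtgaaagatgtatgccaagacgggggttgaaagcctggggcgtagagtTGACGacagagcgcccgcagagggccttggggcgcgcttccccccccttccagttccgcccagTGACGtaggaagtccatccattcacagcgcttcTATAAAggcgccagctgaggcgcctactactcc
Jun: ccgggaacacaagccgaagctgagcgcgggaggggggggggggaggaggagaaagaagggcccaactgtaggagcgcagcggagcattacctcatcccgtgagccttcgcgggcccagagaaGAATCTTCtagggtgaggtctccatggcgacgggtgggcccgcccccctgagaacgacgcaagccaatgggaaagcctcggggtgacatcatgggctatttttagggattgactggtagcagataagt
Atf3: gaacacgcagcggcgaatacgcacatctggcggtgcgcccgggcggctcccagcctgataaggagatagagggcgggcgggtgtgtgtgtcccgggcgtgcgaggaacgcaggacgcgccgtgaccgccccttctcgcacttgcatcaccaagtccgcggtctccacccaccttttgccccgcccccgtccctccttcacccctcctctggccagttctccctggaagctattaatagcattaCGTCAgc
Nr4a1: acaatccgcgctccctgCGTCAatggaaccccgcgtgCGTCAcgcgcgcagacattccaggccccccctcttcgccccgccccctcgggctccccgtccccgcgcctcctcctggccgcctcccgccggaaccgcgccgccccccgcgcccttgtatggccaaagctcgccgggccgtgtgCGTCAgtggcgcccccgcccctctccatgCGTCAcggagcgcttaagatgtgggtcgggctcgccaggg

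TGACG was found in 6 of the 8 members (*Fos*, *Fosb*, *Junb*, *Atf3*, *Dusp1* and *Nr4a1*), and in 17.8% of all 32851 promoters of the table. *Fos* held it 129 and 66 bases before the start, with TATAAA at 33, *Atf3* at 7, *Fosb* at 60 and *Junb* at 106, while *Nr4a1* held 4 copies, at 233, 213, 69 and 40 bases. TATAAA was found in 12.4% of all promoters. The palindrome TGACGTCA, which contains TGACG on both strands and so was also counted above, was found in *Dusp1* alone and in 1.55% of all promoters. It is shown in capitals in the 30 bases around it at chr17:26727571-26727600 (minus strand), 143 to 136 bases before the start of *Dusp1*.
Dusp1: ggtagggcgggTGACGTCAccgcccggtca
*Dusp1* held TGACG again 191 bases before its start. A CArG box, the letters bound by serum response factor, lay 58 bases before the start of *Zfp36* and was found in 1.47% of all promoters. GAANNTTC lay 128 bases before the start of *Jun* and was found in 6.69% of all promoters, and TGANTCA, the AP-1 element, was found in no member and in 6.75% of all promoters. Both strands were searched, and a match or its absence describes these letters in these windows only.

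On GRCm39 the genes lie as follows. *Fos* is at ENSMUSG00000021250.14, chr12:85520664-85524047, plus strand, *Jun* at ENSMUSG00000052684.5, chr4:94937271-94940459, minus strand, *Atf3* at ENSMUSG00000026628.14, chr1:190902493-190950236, minus strand, *Nr4a1* at ENSMUSG00000023034.8, chr15:101152150-101172676, plus strand *Egr1* at ENSMUSG00000038418.8, chr18:34992876-34998037, plus strand and *Dusp1* at ENSMUSG00000024190.8, chr17:26724564-26781102, minus strand. *Junb*, at ENSMUSG00000052837.8, chr8:85701113-85705347, minus strand, and *Ier2*, at ENSMUSG00000053560.6, chr8:85387960-85389483, minus strand, share a chromosome, as do *Fosb*, at ENSMUSG00000003545.4, chr7:19036621-19043976, minus strand, and *Zfp36*, at ENSMUSG00000044786.7, chr7:28076209-28079678, minus strand. *Dusp1* overlaps a second annotated gene, and since the strand setting of the counting is not given in the sources used here, part of its reads may belong to that gene.

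Library totals ran from 20552280 to 72991481 counts in trachea, lung and diaphragm and from 18369905 to 28234711 in somites and iBAT, and no libraries had identical counts. *Hoxa5* was called lower in *Hoxa5*-/- in all 7 contexts with no overlap in TPM, with log2 differences from -1.94 to -0.92, so no library lay against its genotype label. None of the 6 defining markers of any tissue was at 0 in its own libraries. The summed markers were above those of every other tissue of the table except in lung at E12.5. There, lung epithelium markers summed to 509.6 to 631 TPM against up to 1227 TPM in trachea. Stages of 1 tissue shared a list. It summed to 274 to 296 TPM in somites at E12.5 and 346 to 514 TPM at E10.5, and to 1910 to 9906 TPM in lung at E15.5. In bulk tissue, fewer cells that express a gene and less RNA of it per cell cannot be told apart.

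Replicate libraries did not all look alike in these genes, and 2 libraries stood apart. The first was *Hoxa5*-/- replicate 1 of lung at E12.5. *Fos* measured 1.82, 2.17, 1.45 and 1.53 TPM in the wt lungs at E12.5 and 21.4, 1.34, 1.69 and 1.74 TPM in the *Hoxa5*-/- lungs, so that the first *Hoxa5*-/- library alone lay outside the range of the other 7. In that library 7 of the 9 members tested (*Fos*, *Atf3*, *Jun*, *Egr1*, *Dusp1*, *Nr4a1* and *Zfp36*) were at least 1.5-fold above all 7 other lung libraries of the stage in scaled counts (counts per library size by TMM), and of all 17548 genes tested 3.62% were. In scaled counts, over the mean of the other libraries, *Fos* was 13.8-fold higher, *Atf3* 4.67-fold, *Jun* 2.84-fold, *Egr1* 2.54-fold, *Dusp1* 2.38-fold, *Nr4a1* 2.25-fold and *Zfp36* 1.73-fold. *Junb* was the highest of the 8 libraries at 1.65-fold over the mean of the others, short of the limit over the next highest. *Ier2* went the other way and was the lowest of the 8, at 108 TPM against 129 to 144 TPM. Summed over the 10 members the library held 566 TPM against 303 to 352 TPM in the others.

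The high levels reached beyond the members. Of 46 other early response genes tested, 11 were at least 1.5-fold above all other libraries of the stage. Among them were *Ccn1*, a matrix protein of the serum response, with 424 TPM against 25 to 50.8 TPM, *Arc*, with 36.1 TPM against 2.62 to 5.16 TPM, and *Bhlhe40*, with 31.3 TPM against 3.94 to 11 TPM. Heat shock genes, which encode chaperones, were past the same limit in 7 of 10 cases. *Hspa1a*, the stress-induced Hsp70, stood at 657 TPM against 0.519 to 3.82 TPM, its neighbour copy *Hspa1b* at 1427 TPM against 3.45 to 18.2 TPM, and *Hspb1* at 159 TPM against 12.46 to 20.5 TPM. Reads of the near-identical *Hspa1a* and *Hspa1b* may be split uncertainly. The summed heat shock list was 6333 TPM against 2663 to 3393 TPM. Markers of red blood cells were also high, with 7 of 8 above the limit and a sum of 114729 TPM against 14301 to 27292 TPM. Macrophage markers summed to 67.5 TPM against 125 to 149.7 TPM and mitochondrial genes held 0.399% of counts against 1.71 to 2.24%. The part that any of these had in the levels of the members was not tested.

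The second was wt replicate 2 of the diaphragm, in which all 10 members were the highest of the 8 diaphragm libraries. It was also the only wt library of the diaphragm with *Xist*, the RNA of the inactive X of female cells (0.619, 379, 0.637 and 0.282 TPM in wt and 0.722, 357, 412 and 0.186 TPM in *Hoxa5*-/-). *Fos* measured 13.6, 30.9, 10.47 and 12.9 TPM in wt diaphragm and 6.24, 8.68, 10.9 and 8.03 TPM in *Hoxa5*-/- diaphragm. *Fosb* measured 1.56, 5.97, 0.846 and 1.37 TPM in wt and 1.12, 1.36, 1.5 and 1.02 TPM in *Hoxa5*-/-. *Fos*, *Fosb*, *Atf3* and *Nr4a1* were at least 1.5-fold above all 7 others in the second wt library, as were 0.622% of 18019 genes tested. So were 8 of the other early response genes, among them *Dusp5*, a phosphatase of ERK, with 30.3 TPM against 4.62 to 8.22 TPM, *Ccn2* with 82.1 TPM against 15.2 to 23.8 TPM and the activity-dependent factor *Npas4* with 6.42 TPM against 0.587 to 2.61 TPM. Unlike in the lung library, 0 heat shock genes and 0 erythroid markers passed that limit. The heat shock list summed to 2770.2 TPM against 2518 to 2962 TPM, erythroid markers to 12069 TPM against 6094 to 33499 TPM and mitochondrial genes to 2.43% of counts against 2.17 to 3.02%. Neural and glial markers summed to 67.1 TPM, against 14.5 to 17.2 TPM in *Hoxa5*-/- and 33.2 to 44.8 TPM in the other wt libraries. The part of these markers and of *Xist* in the levels of the members was not tested.

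Smaller excursions were seen in 4 other libraries. Wt replicate 3 of trachea was the highest of its 8 in 6 members, with *Fosb* alone past the 1.5-fold limit, as were 3.61% of 19220 genes, and erythroid markers summed to 14886 TPM against 4157 to 11714 TPM. *Hoxa5*-/- replicate 4 of lung at E15.5 was the lowest in 5 members, with cardiac muscle markers at 465 TPM against 32.2 to 217 TPM and lung epithelium markers at 1909.8 TPM against 2655 to 9906 TPM. In the read statistics of the study it had the lowest share of mapped and of assigned reads of its 8. Wt replicate 2 of somites at E12.5 was the highest in 7 members, none past the limit, and *Hoxa5*-/- replicate 1 of diaphragm was the lowest in 5. Apart from the members, wt replicate 3 of diaphragm held lung epithelium markers at 515 TPM against 3.66 to 41.6 TPM. The genotype result of *Nr4a1* and the wt counts of diaphragm are also given without it below. Hepatocyte markers ran from 344 to 10444 TPM over the diaphragm libraries. In *Hoxa5*-/- replicate 3 of trachea, diaphragm muscle markers summed to 2661 TPM against 125 to 574 TPM. Its cartilage and airway list summed to 3248 TPM against 946 to 1558.5 TPM. The part of these markers in the members was not tested.

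**Figure D1:**
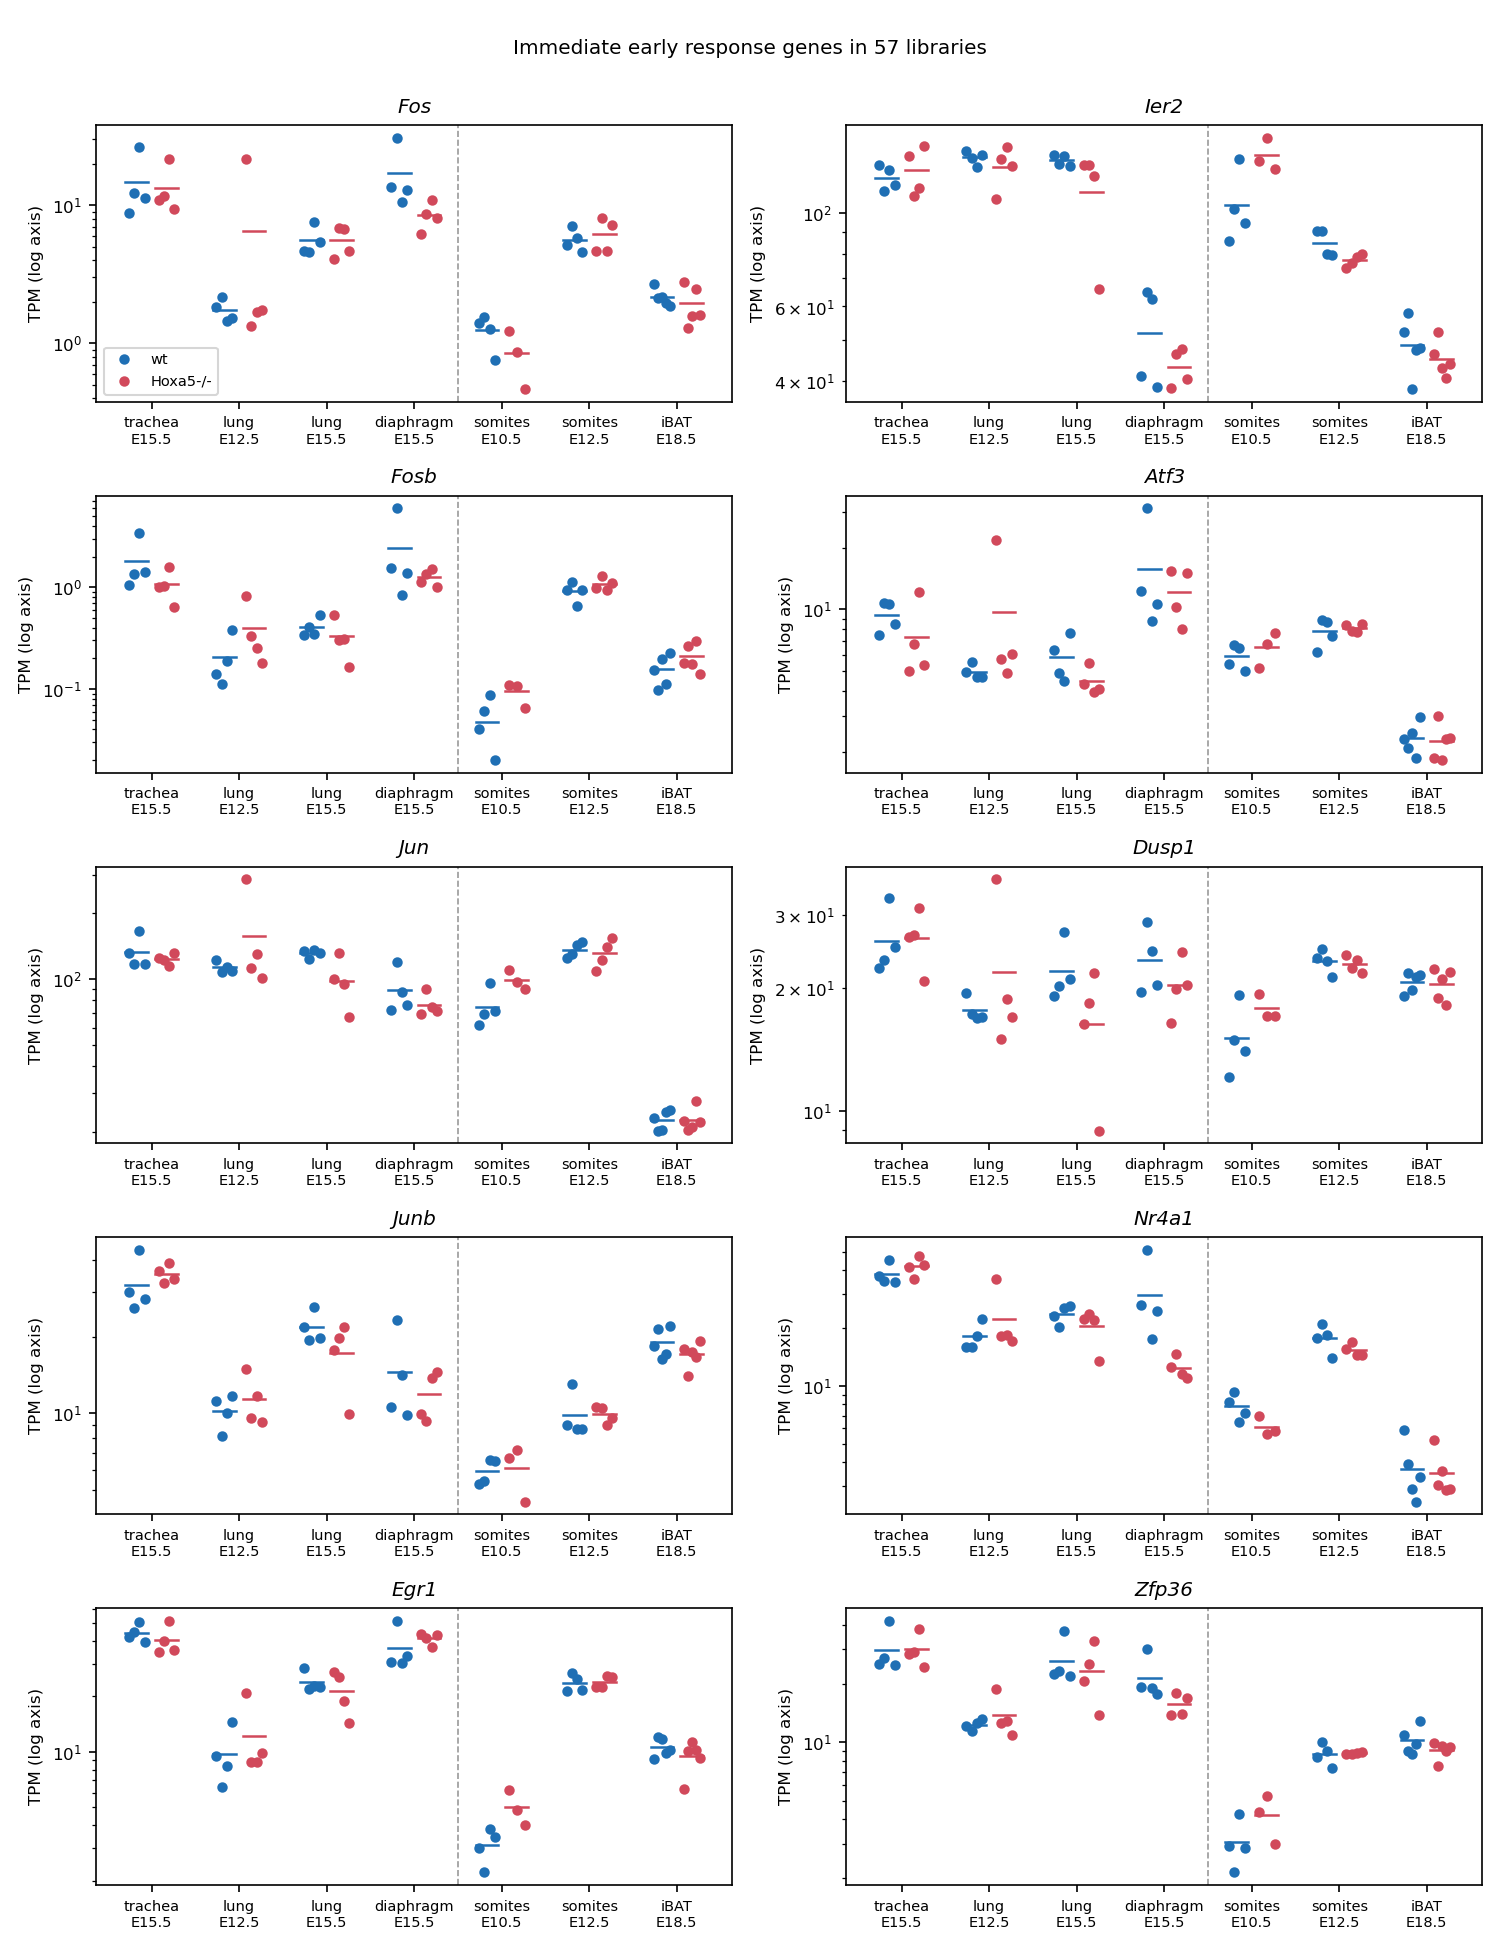
TPM of the 10 members in all 57 libraries on log axes, with wt in blue and *Hoxa5*-/- in red, 1 point per library and a bar at the mean of each group; the dashed line parts the tables, and the single listed 0 (*Fosb* in a wt somite library at E10.5) is drawn at the foot of its panel. *Fos* lies at 21.4 TPM in one *Hoxa5*-/- lung at E12.5 and at 1.45 to 2.17 TPM in the wt lungs.

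**Figure D2:**
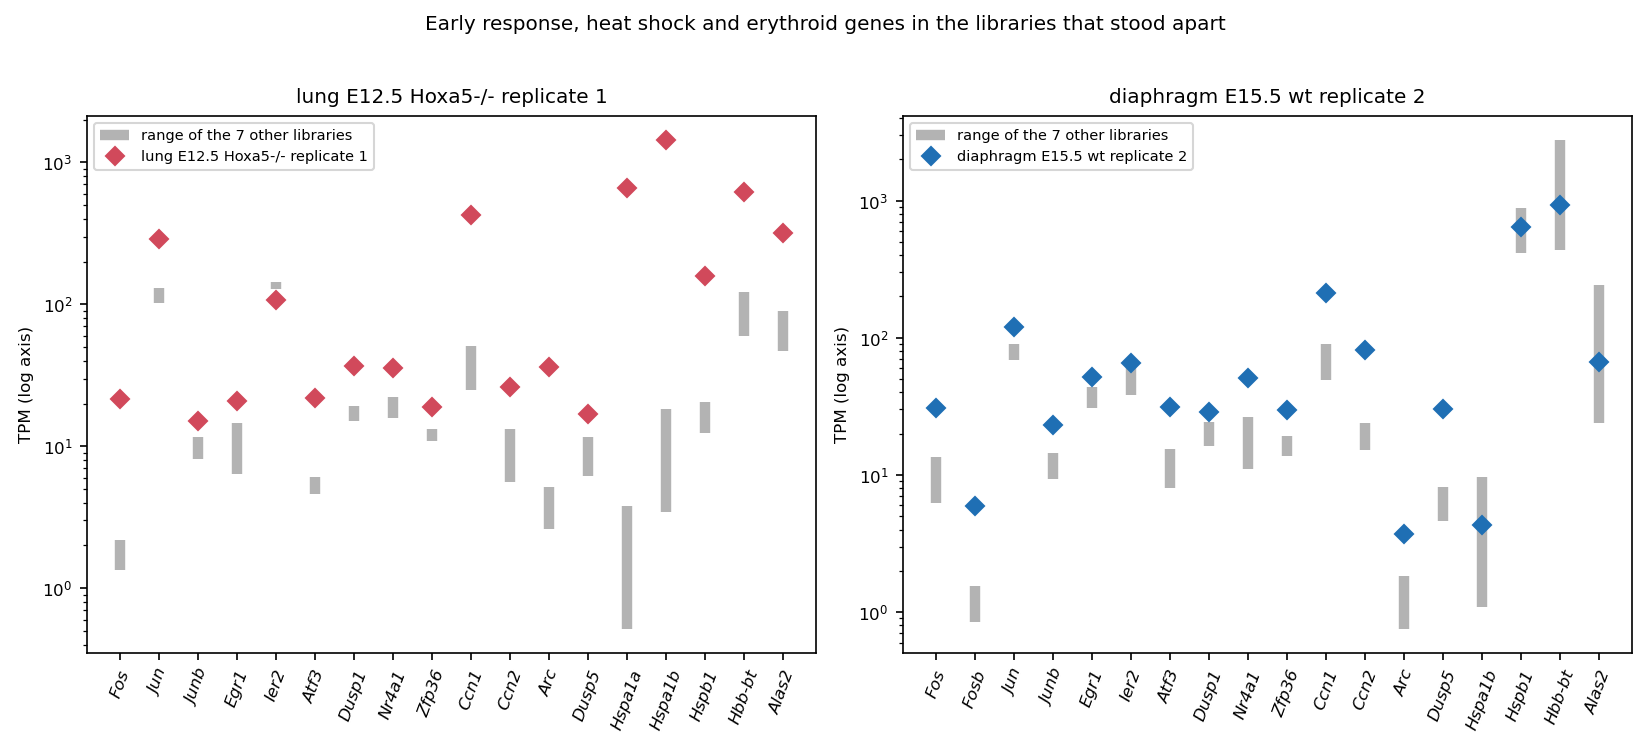
TPM (log axis) of members, other early response genes, heat shock genes and erythroid genes in *Hoxa5*-/- replicate 1 of lung at E12.5 (left, red) and wt replicate 2 of diaphragm (right, blue), with grey bars from the lowest to the highest of the 7 other libraries of the context. *Hspa1b* reaches 1427 TPM in the lung library and lies within the grey bar in the diaphragm library, while *Fos* lies above the grey bar in both.

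In wt embryos the members differed between tissues, and among trachea, lung and diaphragm the largest estimates were those of *Fosb* and *Fos*. Genes were called at an adjusted p under 0.05 in the quasi-likelihood test of edgeR with Benjamini-Hochberg adjustment and a fold change of at least 1.5, and differences are log2 with their standard error. *Fos*, the inducible partner in AP-1, averaged 17 ± 9.38 TPM in diaphragm (SD, n = 4), 14.7 ± 8.03 TPM in trachea, 5.55 ± 1.40 TPM in lung at E15.5 and 1.74 ± 0.327 TPM in lung at E12.5. Diaphragm and trachea did not differ beyond their spread (0.56 ± 0.35, adjusted p = 0.193), whereas trachea was above lung at E15.5 (1.35 ± 0.36, adjusted p = 0.00485) and lung at E15.5 above lung at E12.5 (1.59 ± 0.40, adjusted p = 0.00392). *Fosb*, its low-abundance paralog, followed the same order at 2.43 ± 2.37, 1.81 ± 1.08, 0.407 ± 0.0935 and 0.205 ± 0.119 TPM, and trachea was above lung at E15.5 by 2.10 ± 0.56, adjusted p = 0.00485. In the other table *Fos* averaged 5.64 ± 1.07 TPM in somites at E12.5, 2.16 ± 0.322 TPM in iBAT (n = 5) and 1.24 ± 0.345 TPM in somites at E10.5. There, iBAT and somites at E12.5 did not differ beyond their spread in scaled counts (-0.21 ± 0.21, adjusted p = 0.361). *Fosb* was near absence in somites at E10.5, with 0 to 4 counts per wt library, and was not tested there.

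*Jun*, the partner of the *Fos* proteins in AP-1, was abundant in all 4 respiratory contexts, with 133 ± 23.4 TPM in trachea, 131 ± 5.80 in lung at E15.5, 113 ± 6.69 in lung at E12.5 and 88.9 ± 21.5 in diaphragm. It was called in none of the 6 comparisons among them. In the other table *Jun* was highest in somites at E12.5 with 136 ± 10.48 TPM, above somites at E10.5 with 74.5 ± 14.7 TPM (0.81 ± 0.10, adjusted p = 7.30e-07), and lowest in iBAT with 22.8 ± 2.31 TPM (-1.42 ± 0.09, adjusted p = 3.47e-11 against somites at E12.5). *Junb*, a weaker activator than *Jun*, was highest in trachea at 31.9 ± 8.05 TPM and lowest in lung at E12.5 at 10.3 ± 1.57 TPM (1.55 ± 0.23, adjusted p = 2.38e-05). In contrast to *Jun* it was highest in iBAT, at 19.1 ± 2.55 TPM against 9.85 ± 2.09 TPM in somites at E12.5 (2.11 ± 0.14, adjusted p = 7.32e-11). *Atf3* averaged 15.7 ± 10.4 TPM in diaphragm, with 12.3, 31.1, 8.75 and 10.6 TPM in the 4 wt libraries, and 9.32 ± 1.61 TPM in trachea (1.10 ± 0.31, adjusted p = 0.00707). That difference was no longer called without wt replicate 2 of diaphragm.

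*Egr1*, a zinc finger factor of the growth factor response, had the largest change of any member between the somite stages. It measured 3.0, 2.21, 3.82 and 3.46 TPM in wt somites at E10.5 and 21.4, 26.8, 25 and 21.7 TPM at E12.5, 2 ranges far apart (2.86 ± 0.16, adjusted p = 1.61e-11). In lung it measured 9.46, 6.42, 8.39 and 14.6 TPM at E12.5 and 28.7, 22, 22.9 and 22.4 TPM at E15.5, again without overlap (1.26 ± 0.21, adjusted p = 0.000141). *Nr4a1*, a nuclear receptor induced by many signals, also rose in somites, from 7.82 ± 1.23 to 17.8 ± 2.88 TPM (1.10 ± 0.21, adjusted p = 0.000130), but its difference of 0.34 ± 0.23, adjusted p = 0.247 in lung was not called. *Ier2* was not called between the stages of either tissue. It was at 136 ± 4.98 TPM in lung at E12.5, 134 ± 4.15 in lung at E15.5 and 121 ± 8.09 in trachea, 3 neighbours that did not differ beyond their spread. Diaphragm held 51.8 ± 13.8 TPM, below trachea (-0.87 ± 0.12, adjusted p = 1.57e-05). In somites *Ier2* was at 104 ± 21.2 TPM at E10.5 and 85.1 ± 6.32 TPM at E12.5, a difference under 1.5-fold.

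The brakes of the response differed from each other. *Dusp1* ran from 17.6 ± 1.18 TPM in lung at E12.5 to 25.9 ± 4.85 TPM in trachea, and was called only between diaphragm and lung at E12.5 (0.62 ± 0.15, adjusted p = 0.00137) among the 6 respiratory comparisons, a call lost without wt replicate 2 of diaphragm. *Zfp36* was lowest in lung at E12.5, at 12.3 ± 0.728 TPM, and reached 26.2 ± 7.30 TPM in lung at E15.5 (1.04 ± 0.21, adjusted p = 0.000800). In somites it went from 3.05 ± 0.892 TPM at E10.5 to 8.71 ± 1.11 TPM at E12.5 (1.45 ± 0.16, adjusted p = 3.16e-07). Between iBAT and the somites the scaling itself matters, because TMM, the edgeR scaling used here, and TPM set the median gene 1.13 log2 units apart against somites at E12.5 and 1.06 against somites at E10.5. *Dusp1* was called higher in iBAT than in somites at E12.5 (1.0 ± 0.11, adjusted p = 4.73e-08) although its mean TPM was lower, at 20.6 ± 1.18 against 23.2 ± 1.53 (log2 ratio -0.17). *Egr1* and *Ier2*, which were not called there, also changed sign with the scale, and the iBAT differences given above are relative to the TMM scale. The same shift was 0.28 for diaphragm against lung at E15.5, 0.36 against trachea and 0.25 against lung at E12.5, and -0.11 for trachea against lung at E12.5, with no called member changing sign.

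Counted over the comparisons, 4 of 10 members tested were called between trachea and lung at E15.5, all higher in trachea (*Fosb*, *Fos*, *Egr1* and *Nr4a1*), where 31.3% of all genes were called and 20.1% were called higher. Between diaphragm and lung at E15.5, 5 of 10 were called higher in diaphragm (*Fosb*, *Fos*, *Atf3*, *Egr1* and *Nr4a1*) and *Ier2* lower, beside 36.6% of all genes called and 20.9% higher. Diaphragm against trachea gave *Atf3* higher and *Ier2* and *Junb* lower, 3 of 10 beside 34.3% of all genes and 16.6% higher, which is near the background. The stage comparison in lung gave 4 of 9 higher at E15.5 (*Fos*, *Egr1*, *Zfp36* and *Junb*) and none lower, beside 23.7% of genes called and 14.5% higher. Against lung at E12.5, 7 of 10 were higher in trachea, beside 41.6% called and 26% higher, and 8 of 10 were higher and *Ier2* lower in diaphragm, beside 41.3% and 23.3%. Somites at E12.5 had 6 of 9 members higher than at E10.5 (*Egr1*, *Fos*, *Zfp36*, *Nr4a1*, *Jun* and *Junb*) and none lower, beside 42.6% of genes called and 23.9% higher. In iBAT, *Junb*, *Zfp36* and *Dusp1* were called higher and *Jun* and *Nr4a1* lower than in somites at E12.5, 5 of 9 beside 66.5% of genes called and 30.1% higher. Against somites at E10.5, *Egr1*, *Zfp36*, *Junb*, *Fos* and *Dusp1* were called higher in iBAT and *Jun* lower, 6 of 9 beside 70.5% called and 33.2% higher. These comparisons share wt libraries and so are not independent of each other.

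A few of these calls rested on single libraries. Without wt replicate 2 of diaphragm, *Junb* and *Dusp1* were no longer called against lung at E12.5 and *Nr4a1* was not called against lung at E15.5, a call also lost without either of 2 lung libraries. Leaving out wt replicate 3 of diaphragm, the library with lung epithelium markers, gave 6 of 10 members called against lung at E15.5. It gave 3 of 10 against trachea and 9 of 10 against lung at E12.5, as with all libraries. *Nr4a1* between trachea and lung at E15.5 was lost without any of 4 single libraries, and *Atf3* between trachea and lung at E12.5 without any of 5. *Junb* between the somite stages was lost without wt replicate 2 of somites at E12.5, with DESeq2 and with its size factors in edgeR. *Jun* between iBAT and somites at E10.5 was lost without wt replicate 3 of somites at E10.5. When the same comparisons were made with the *Hoxa5*-/- libraries, *Fos* was not called between the lung stages (-0.25), with the library that stood apart among them. Nor was it called there for trachea (1.09) or diaphragm (0.79) against lung at E15.5, or for either against lung at E12.5 (0.84 and 0.54). *Jun* was not called between the somite stages (0.39).

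A list of 51 other early response genes (factors of the *Fos*, Egr, Klf and Nr4a families, phosphatases of the Dusp family, secreted Ccn proteins and others) showed where the members stood in their pathway. Between the lung stages 21 of 47 were called higher and 0 lower, with a median log2 difference of 0.53 against 0.00 over all genes, and the largest rise was that of *Egr3* (2.36 ± 0.36, adjusted p = 7.75e-05). Between the somite stages 30 of 48 were called higher and 5 lower at E12.5, with medians of 0.86 and -0.04, from *Klf4* (3.41 ± 0.16, adjusted p = 2.40e-12) to *Plk3* (-2.73 ± 0.15, adjusted p = 8.94e-12). In both tissues more of the list was called higher than lower at the later stage, as were the members. Trachea and lung at E15.5 showed no such lean, since 6 of 49 were called higher and 9 lower in trachea, the ends being *Nr4a3* (2.38 ± 0.46, adjusted p = 0.000428) and *Arc* (-1.69 ± 0.36, adjusted p = 0.000850). *Nr4a3* and *Arc* were also the ends for diaphragm against lung at E15.5 (2.60 and -1.61), where 11 of 49 were called higher and 8 lower, and *Gadd45a* and *Ccn2* were those against trachea (1.87 and -1.48), where 11 of 49 were called higher and 9 lower. Against lung at E12.5, 21 of 49 were called higher and 6 lower in trachea, led by *Ccn2* (4.08) with *Gadd45a* lowest (-1.66), and 22 of 49 were called higher and 5 lower in diaphragm, led by *Egr2* (4.07) with *Plk2* lowest (-1.36). In iBAT, 17 of 48 were called higher and 18 lower than in somites at E12.5, from *Cebpb* (4.62), a factor of fat cell differentiation, to *Ccn2* (-5.04), and 27 of 47 were called higher and 8 lower than in somites at E10.5, from *Cebpb* (6.40) to *Plk3* (-4.13).

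No member was called by edgeR between the genotypes in any of the 7 contexts, and DESeq2 called 1, *Nr4a1* in diaphragm. All genes called made up 0.0156% of those tested in trachea, 0.0798% in the early lung, 0.124% in the late lung and 0.594% in diaphragm. The share was 0.0215% in somites at E10.5, 0.00529% in somites at E12.5 and 0.00657% in iBAT, so few calls were made in these comparisons on any gene. Members tested numbered 10, 9, 9, 10, 9, 10 and 9 in the same order, *Fosb* being too low in the contexts with 9. At an unadjusted p under 0.05 the members numbered 0 of 10 in trachea beside 6.7% of all genes, 0 of 9 in lung at E12.5 beside 8.01% and 1 of 9, *Jun*, in lung at E15.5 beside 6.32%. They numbered 3 of 10 in diaphragm (*Nr4a1*, *Fos* and *Zfp36*) beside 13% and 4 of 9 in somites at E10.5 (*Jun*, *Egr1*, *Ier2* and *Nr4a1*) beside 12.7%. The later somites gave 0 of 10 beside 3.24% and iBAT 0 of 9 beside 2.47%. Groups without overlap in scaled counts were seen in 0 of 10 members in trachea where 3.88% of all genes did so, 0 of 9 at the early lung stage (5.45%) and 1 of 9, *Ier2*, at the late one (4.38%). They were seen in 2 of 10 in diaphragm (*Nr4a1* and *Zfp36*, where 8.03% of all genes did so), 2 of 9 in somites at E10.5 (*Jun* and *Egr1*, 8.16%), 0 of 10 in somites at E12.5 (2.66%) and 0 of 9 in iBAT (0.309%). The median log2 difference of the members, *Hoxa5*-/- over wt, was -0.06, 0.35, -0.18, -0.32, 0.20, 0.01 and -0.07 in the same order, and that of all genes lay between -0.01 and 0.00. Every group was of mixed sex by *Xist*, with libraries at 1.53 TPM or less and libraries at 19.9 TPM or more. With *Xist* as a covariate 0 members were called in any context, but those at an unadjusted p under 0.05 in diaphragm went from 3 to 6, and the median in trachea from -0.06 to 0.07.

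The nearest to a genotype difference was *Nr4a1* in the diaphragm. It measured 26.3, 51.0, 17.5 and 24.7 TPM in wt and 12.48, 14.7, 11.6 and 11 TPM in *Hoxa5*-/- diaphragm, so every *Hoxa5*-/- library lay below every wt library. The log2 difference was -1.27 ± 0.28, adjusted p = 0.0980 in edgeR, past the threshold for a call in 4 of the alternatives. It was called by DESeq2 (-1.27, adjusted p = 0.000386) and with the replicate number as a block (-1.18, adjusted p = 0.0213). It was also called with 1 fit for all 32 libraries (-1.26, adjusted p = 0.00200) and without wt replicate 3, the library with lung epithelium markers (-1.45, adjusted p = 0.0329). In the simulated diaphragm comparison 10.3% and 14.2% of the genes DESeq2 called had not been changed (for simulated log2 changes of 1 and 2), against 3.73% and 1.56% with edgeR. The simulated spread was taken from edgeR's own estimates and held no library like wt replicate 2. It therefore does not decide between the tools for *Nr4a1*. Neural and glial markers also lay apart between the genotypes, at 33.2 to 67.1 TPM in wt and 14.5 to 17.2 TPM in *Hoxa5*-/- diaphragm, and their part in *Nr4a1* was not tested. Without wt replicate 2, the library in which all members were high, it was -0.90 with an adjusted p of 0.111. *Fos* differed by -1.0 ± 0.33, adjusted p = 0.243, and by -0.56 without wt replicate 2. *Fosb* differed by -0.95 ± 0.54, adjusted p = 0.505, and by -0.04 without that library. *Zfp36* measured 19.2, 30, 19.1 and 17.7 TPM in wt and 13.8, 17.9, 14 and 16.9 TPM in *Hoxa5*-/- (-0.46 ± 0.16, adjusted p = 0.278), with the groups apart in scaled counts and overlapping in TPM. *Egr1* was the only member with a higher estimate in *Hoxa5*-/- diaphragm (0.18 ± 0.15, adjusted p = 0.668).

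In somites at E10.5, with 4 and 3 libraries, *Jun* measured 61.5, 69.4, 95.7 and 71.4 TPM in wt and 109.9, 97 and 90.3 TPM in *Hoxa5*-/-. The groups overlapped in TPM and were apart in scaled counts, with a log2 difference of 0.37 ± 0.11, adjusted p = 0.391. *Egr1* measured 3.0, 2.21, 3.82 and 3.46 TPM in wt and 6.18, 4.82 and 3.99 TPM in *Hoxa5*-/-, all 3 mutant values being above all wt values (0.63 ± 0.19, adjusted p = 0.391). *Ier2* measured 85.9, 102, 134 and 94.6 TPM and 133, 151 and 127 TPM, with the third wt library inside the range of the mutants (0.35 ± 0.12, adjusted p = 0.391). *Nr4a1* measured 8.24, 9.31, 6.48 and 7.24 TPM and 6.95, 5.63 and 5.80 TPM (-0.41 ± 0.17, adjusted p = 0.391). The muscle, cartilage and airway, and endothelial marker lists were mostly higher in *Hoxa5*-/-, as were *Jun*, *Egr1* and *Ier2* but not *Nr4a1*. Neural and glial markers overlapped, at 862, 654, 1094 and 996 TPM in wt and 1206, 1041 and 705 TPM in *Hoxa5*-/-. Muscle markers summed to 146, 146, 298 and 213 TPM in wt and 361, 320.0 and 277 TPM in *Hoxa5*-/-, and the cartilage and airway list to 352, 387, 549 and 394 TPM and 496, 501 and 466 TPM. Endothelial markers summed to 144, 156, 185 and 161 TPM and 207, 190.4 and 179 TPM. In the muscle, cartilage and airway, and endothelial lists the third wt library was the highest of the wt and lay within or above the range of the mutants. The part of the marker lists in the members was not tested. In scaled counts, wt replicate 3 was the highest wt library in *Jun*, *Egr1*, *Ier2*, *Zfp36* and *Dusp1*. Without it *Egr1* was called (0.72, adjusted p = 0.0448), as were 386 of 18664 genes in place of 4 of 18573, while *Jun* (0.48, adjusted p = 0.0139) and *Ier2* (0.47, adjusted p = 0.0173) passed the adjusted p but were under 1.5-fold. At E12.5 no member had an unadjusted p under 0.05, *Egr1* averaging 23.7 ± 2.63 TPM in wt and 24 ± 1.85 TPM in *Hoxa5*-/- (SD, n = 4 and 4).

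In lung at E12.5 the largest estimate of any member in any context was that of *Fos*, at 1.99 ± 0.90, adjusted p = 0.622, and it rested on 1 library. *Atf3* followed at 1.01 ± 0.49, adjusted p = 0.639 and *Jun* at 0.53 ± 0.32, adjusted p = 0.70. Without *Hoxa5*-/- replicate 1 the estimates were -0.18 for *Fos*, 0.11 for *Atf3*, -0.02 for *Jun* and -0.09 for *Dusp1*, and 1 of 9 members was higher in *Hoxa5*-/- in place of 8. In lung at E15.5 *Jun* measured 135, 123, 136 and 132 TPM in wt and 99.8, 132, 95.3 and 67.1 TPM in *Hoxa5*-/-, with 3 mutant libraries below all wt libraries and the other inside their range (-0.34 ± 0.10, adjusted p = 0.452). Endothelial markers summed to 831, 880.1, 970.3 and 787 TPM in wt and 659, 641, 723 and 411 TPM in *Hoxa5*-/- lung at E15.5, without overlap, and their part was not tested. *Ier2* measured 138, 131, 137 and 129 TPM and 130.3, 130.0, 122 and 66.1 TPM there, close except for the last mutant library (-0.18 ± 0.09, adjusted p = 0.849). TMM and TPM set the median gene 0.11 log2 units apart in this comparison, so both differences are larger in TPM. That last library, *Hoxa5*-/- replicate 4, also had the lowest share of mapped reads. Without it the median log2 difference of the members in lung at E15.5 was -0.09 in place of -0.18. The lowest adjusted p of any member was 0.774 in trachea and 1.0 in iBAT. *Fos* in trachea measured 8.78, 12.3, 26.6 and 11.3 TPM in wt and 11, 11.6, 21.5 and 9.44 TPM in *Hoxa5*-/-, with the third library highest in both genotypes. In iBAT it measured 2.69, 2.13, 2.17, 1.95 and 1.87 TPM in wt and 2.78, 1.30, 1.58, 2.48 and 1.61 TPM in *Hoxa5*-/-, with full overlap.

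The rest of the pathway also gave no calls with edgeR. Of the other early response genes tested (45 to 49 per context), 0 were called in any context with edgeR. Those with an unadjusted p under 0.05 numbered 8 of 49 in trachea, beside 6.7% of all genes, and 6 of 46 in lung at E12.5, beside 8.01%. They numbered 6 of 47 in lung at E15.5 (6.32%), 13 of 49 in diaphragm (13%) and 12 of 45 in somites at E10.5 (12.7%). Somites at E12.5 gave 2 of 48 (3.24%) and iBAT 2 of 46 (2.47%). The lowest adjusted p of the list in diaphragm was that of *Npas4*, at -2.18 ± 0.40 (adjusted p = 0.0588), and wt replicate 2 was its highest library. Of 21 genes that act upstream of the response, such as *Srf*, *Elk1* and *Creb1*, 0 were called in any context. At an unadjusted p under 0.05 there were 0, 1, 0, 4, 6, 1 and 0 in the same order, beside the same shares of all genes. Of the heat shock genes, 10, 10, 9, 9, 9, 10 and 8 were tested in the same order and 0 were called either. At that level there were 0, 2, 0, 2, 3, 0 and 0, again beside those shares. *Hspa1a* nevertheless differed by 6.67 ± 2.19 (adjusted p = 0.462) in lung at E12.5, where the library that stood apart held 657 TPM.

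**Figure D3:**
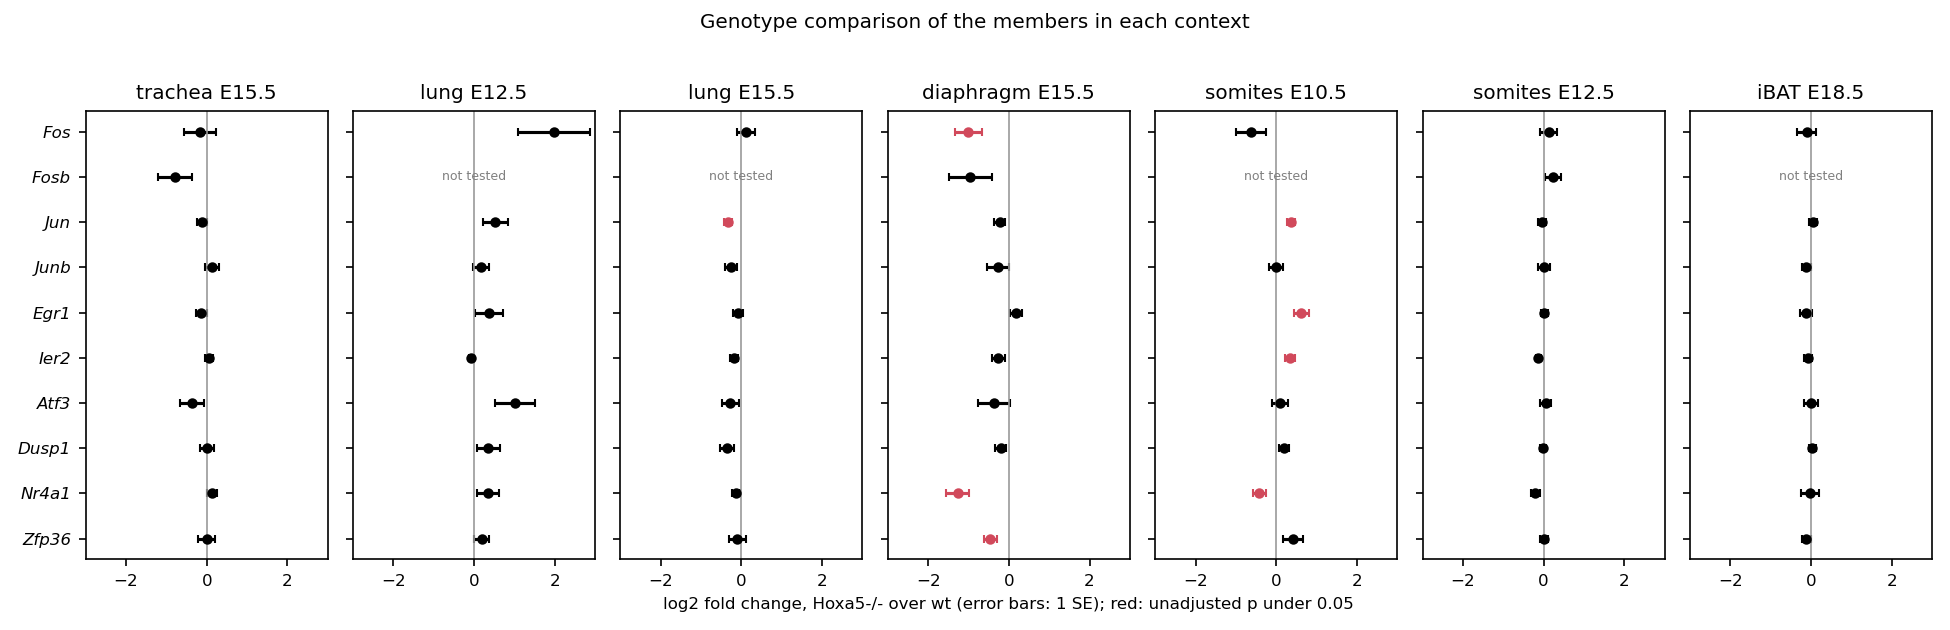
Log2 difference of each member between *Hoxa5*-/- and wt in the 7 contexts, with error bars of 1 standard error; red marks an unadjusted p under 0.05, and none had an adjusted p under 0.05. *Nr4a1* in diaphragm lies at -1.27, and *Fos* in lung at E12.5 at 1.99 with the widest bar of the panels.

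Whether the genotype effect itself differed between contexts was tested as an interaction within each table. No member was called (adjusted p under 0.05), beside 0.0267% of all genes for lung at E15.5 against E12.5, 0.00502% for trachea against lung at E15.5, 0.73% for diaphragm against lung at E15.5, 0.439% for diaphragm against trachea and 0.0147% for the somite stages. For *Nr4a1* the log2 effect in diaphragm minus that in trachea was -1.38 ± 0.33, adjusted p = 0.0805, and minus that in lung at E15.5 it was -1.13 ± 0.31, adjusted p = 0.177. Both passed with DESeq2, with the replicate block and without wt replicate 3 of diaphragm. Between the somite stages the differences were -0.48 ± 0.14, adjusted p = 0.327 for *Ier2*, -0.61 ± 0.20, adjusted p = 0.327 for *Egr1* and -0.41 ± 0.16, adjusted p = 0.327 for *Jun*, and all 3 passed without wt replicate 3 of somites at E10.5, as did 2580 of 20486 genes in place of 3 of 20419.

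The spread between replicates was then set beside that of every other gene, as the SD of log2 CPM (counts scaled to library size, prior count 2) within the groups of genotype and context. In trachea, lung and diaphragm the median member lay at percentile 60.4 of 21113 genes, and in somites and iBAT at percentile 45.7 of 21309 genes. Among genes of their own level the members lay at a median percentile of 88.5 in the first table and 53.4 in the second. *Fos* had an SD of 0.82 (percentile 95.2), *Fosb* 0.69 (91.7) and *Atf3* 0.57 (84.6), against a median of 0.25 over all genes. *Egr1*, *Nr4a1*, *Jun*, *Dusp1*, *Junb* and *Zfp36* lay between 0.31 and 0.35, and *Ier2* was the steadiest at 0.17 (37.4). Without *Hoxa5*-/- replicate 1 of lung at E12.5, a setting chosen after the data were seen, *Fos* had an SD of 0.46 (percentile 74.5) and *Jun* of 0.18 (40.3), down from 59.2. By group, the median SD of the members against that of all genes was largest in the *Hoxa5*-/- lungs at E12.5, at 0.669 against 0.171, and in wt diaphragm, at 0.425 against 0.165, the groups of the libraries that stood apart. It was lowest in *Hoxa5*-/- somites at E12.5, at 0.0911 against 0.131, where *Fos* was the widest member.

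Splitting the sum of squares of each member into tissue and stage, genotype within a context and replicates within a group gave tissue and stage the largest share in every member but *Jun* and *Dusp1* in trachea, lung and diaphragm. It gave genotype the smallest share in every member but *Nr4a1* there. The shares are not divided by the number of independent differences behind them. That number is smaller for genotype, and for tissue and stage, than for replicates. Genotype would thus hold less than replicates even without an effect, and a small share of it does not show that there was none. Likewise, a larger share of replicates than of tissue and stage does not show that replicates differed more than tissues did. Over all genes the medians were 73.2% for tissue and stage, 3.94% for genotype and 21.8% for replicates in trachea, lung and diaphragm. Replicates held 67.0% for *Jun* and 58.4% for *Dusp1*, a larger undivided share than that of tissue and stage. They held 38.8% for *Atf3* and 31.4% for *Fos*, but 11.6% for *Egr1* and 8.09% for *Ier2*. Without *Hoxa5*-/- replicate 1 of lung at E12.5 the share of replicates was 10.1% for *Fos*, 34.6% for *Dusp1* and 51.7% for *Jun*. Tissue and stage then held 54.5% for *Dusp1* and 25.1% for *Jun*. *Nr4a1* stood out among the members in the share of genotype, with 29.4%, beside that of replicates (29.2%). In somites and iBAT replicates held 36.7% for *Atf3*, 25% for *Ier2* and 20.6% for *Nr4a1* but 2.25% for *Junb*, beside a median of 9.65% over all genes.

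**Figure D4:**
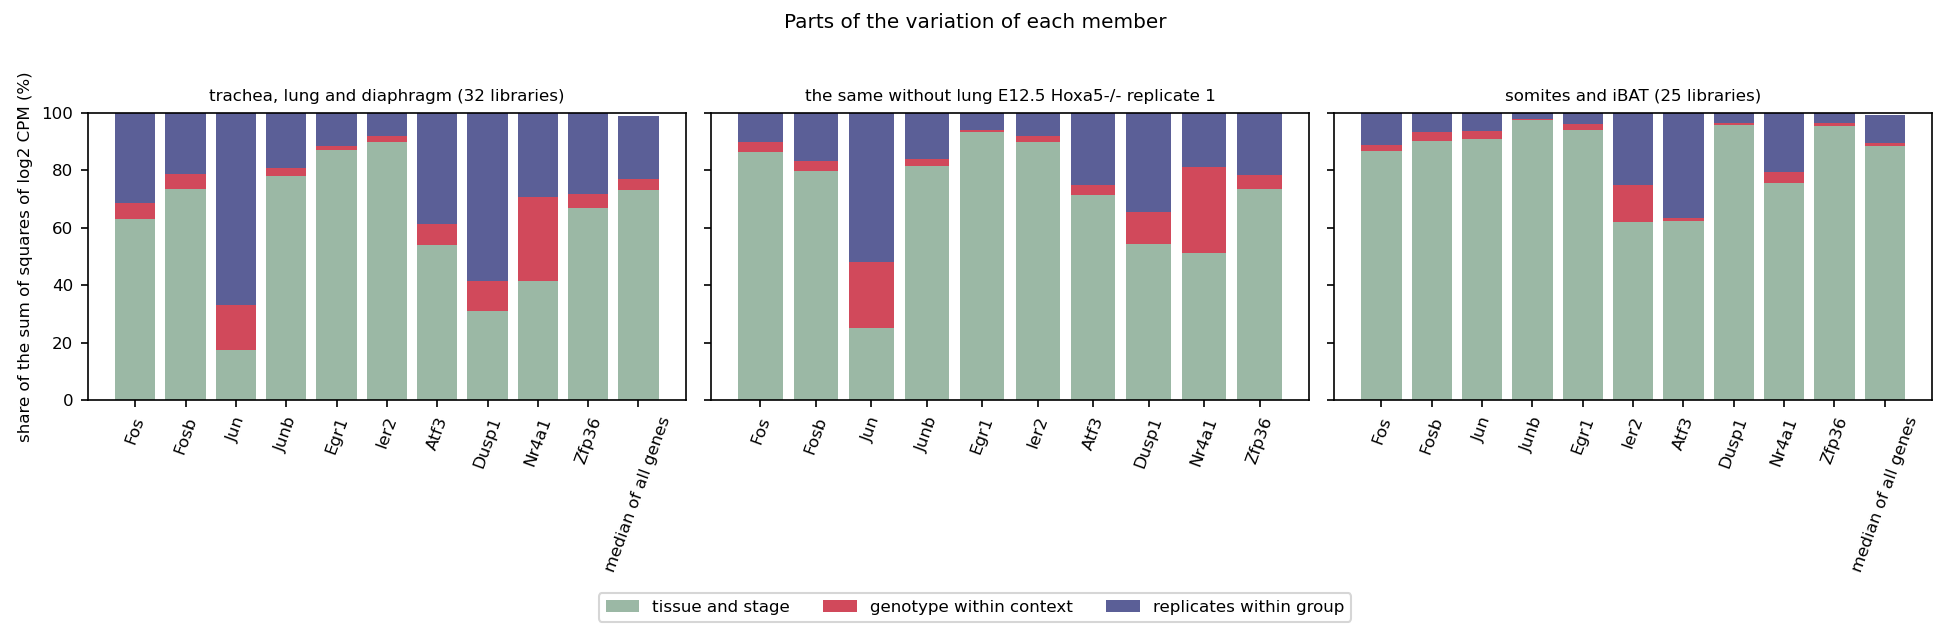
Share (%) of the sum of squares of log2 CPM held by tissue and stage (green), genotype within a context (red) and replicates within a group (blue) for each member, in both tables and without *Hoxa5*-/- replicate 1 of lung at E12.5; the last bar of the outer panels stacks the medians over all genes, which need not sum to 100. Replicates take 67.0% of *Jun* in trachea, lung and diaphragm and 6.22% in somites and iBAT.

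Members also deviated together from one library to the next. After the mean of each group was taken away, *Fos* was compared with every other member and with 5 technical measures across the libraries of each table, 28 relations in all, by permutation within groups with Benjamini-Hochberg adjustment. In the 32 libraries of trachea, lung and diaphragm 7 members passed by Pearson's r. Those that also passed by rank were *Dusp1* (r = 0.87, rho = 0.75, adjusted permutation p = 0.00308 and 0.00350 for r and rho) and *Zfp36* (r = 0.75, rho = 0.68, adjusted permutation p = 0.00364 and 0.00308). These are the brakes of the response. *Jun* (r = 0.84, rho = 0.51, adjusted permutation p = 0.0410 and 0.0851) and *Atf3* (r = 0.78, rho = 0.57, adjusted permutation p = 0.0238 and 0.0756) passed by r and not by rank. So did *Nr4a1* (r = 0.76, rho = 0.56, adjusted permutation p = 0.0238 and 0.0756) and so did *Fosb* and *Junb* at r = 0.66 and 0.63. *Egr1* did not pass (r = 0.68, rho = 0.42, adjusted permutation p = 0.0784 and 0.143), and neither did *Ier2* (r = -0.08, rho = -0.08, adjusted permutation p = 0.772 and 0.750). The mean of the heat shock genes passed by r and not by rank (r = 0.82, rho = 0.49, adjusted permutation p = 0.0432 and 0.0851). Erythroid markers (r = 0.63, rho = 0.48, adjusted permutation p = 0.0784 and 0.0851), the share of mitochondrial counts (r = -0.64), *Xist* (r = 0.32) and total counts (r = -0.06) did not pass. Leaving out the 2 libraries farthest from the median left *Dusp1* alone (r = 0.70, adjusted p = 0.0129), with *Zfp36* at r = 0.72, adjusted p = 0.0545 and *Jun* at r = 0.50, adjusted p = 0.349. Without *Hoxa5*-/- replicate 1 of lung at E12.5 alone, *Dusp1* (r = 0.70, adjusted p = 0.00812) and *Zfp36* (r = 0.73, adjusted p = 0.0140) passed. In the 25 libraries of somites and iBAT only *Nr4a1* passed (r = 0.53, rho = 0.56, adjusted permutation p = 0.0238 and 0.0409), and it did not without the 2 farthest libraries (r = 0.43, adjusted p = 0.349).

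**Figure D5:**
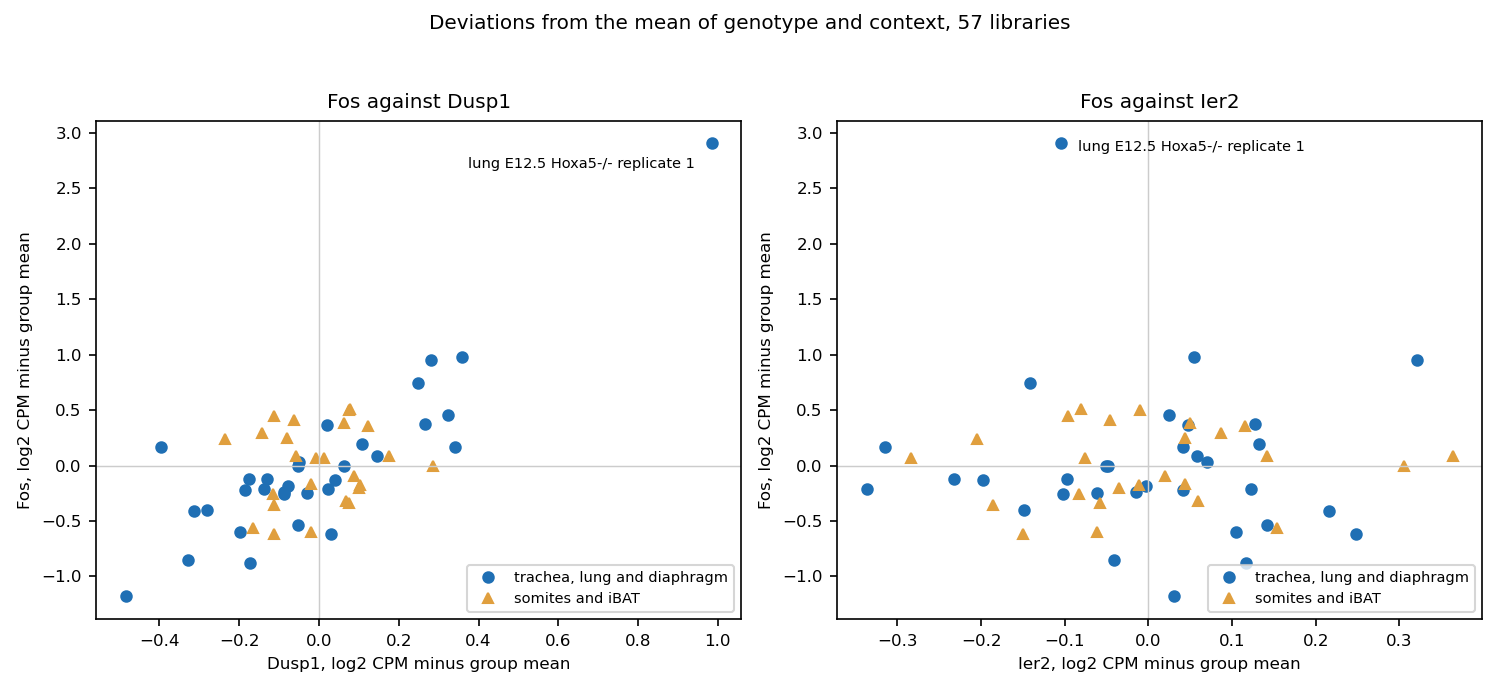
Deviation of *Fos* from the mean of its genotype and context (log2 CPM) against that of *Dusp1* (left) and *Ier2* (right) in all 57 libraries, with trachea, lung and diaphragm as blue circles and somites and iBAT as orange triangles. *Fos* and *Dusp1* deviate together in the first table (r = 0.87), with *Hoxa5*-/- replicate 1 of lung at E12.5 at the far corner. *Fos* and *Ier2* do not (r = -0.08).

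As a description over all pairs of members, 42 of 45 pairs had r above 0 in trachea, lung and diaphragm and 35 had r above 0.5, with a median of 0.64. Without *Hoxa5*-/- replicate 1 of lung at E12.5 these were 44 and 22, with a median of 0.48, and the closest pair was *Fosb* and *Nr4a1*. In somites and iBAT 32 of 45 were above 0 and 3 above 0.5, with a median of 0.15, and the closest pair was *Junb* and *Zfp36*. The pairs share libraries and depth. Among 12888 genes expressed in every context, the 10 genes outside the members whose deviations were most like the mean of the members in both tables, by the smaller of the 2 values of r, included *Igfbp3* (0.60), *Bag3* (0.59), *Mafk* (0.58), *Rhob* (0.56), *Wbp2* (0.55), *Gnb2*, *Eps8*, *Bcar3* and *Ubald1* (0.53 each). Without *Hoxa5*-/- replicate 1 of lung at E12.5 the 10 nearest were *C1qa* (0.56), *C1qc* (0.55), *Sema6b*, *Plcd3*, *Slc25a29*, *Gltp*, *Metrnl*, *Mfsd11*, *Pias3* and *Rhob*, and *Rhob*, itself on the list of other early response genes, was the only gene in both sets of 10.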

How the data were processed

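Libraries were grouped by the deposited labels, and each was taken as 1 embryo. Litters are not given, although the iBAT names share leading numbers across genotypes, so p-values measure the spread between these samples. Poly(A) RNA was sequenced. Per the labels, trimming was done with Trim Galore 0.6.5, alignment to GRCm39 used STAR 2.7.9a, and featureCounts 2.0.3 counted reads per gene of an annotation curated for Hox genes. The deposited counts are raw whole numbers, and the deposited TPM values hold those counts per exon length, scaled by the authors to an equal total per library. Counts were tested with edgeR 4.0.16 (quasi-likelihood, TMM, Benjamini-Hochberg) in R 4.3.3 over every gene whose mean reached 1 TPM in either compared group. DESeq2 1.42.0, other scaling and filters, the replicate block and leaving out each library were alternatives. Spread and relations used log2 CPM with a prior count of 2 and 100000 permutations within groups (Python 3.11.15, scipy 1.17.1). Tests were checked on simulated counts of 8000 genes. The members, the lists and the rule for named genes (all members; the called genes of the list with the largest rise and fall; the 10 genes most like the members, of which 1 is not reported here; *Hoxa5*) were chosen with earlier results of these data known. A library was said to stand apart where at least 4 members were 1.5-fold above all others of the context in scaled counts, a limit chosen after the values were seen.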

Additional observations from a re-analysis of the deposited data

Results flagged for a closer look

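In each group of 4 or 5 libraries the gap between the most extreme library and its nearest neighbour was divided by the range of log2 CPM, and 11 of 122 combinations of member and group (9.02%) passed the 95% critical value of Dixon, where chance gives about 1 in 20. They fell in 8 libraries, and 4 of them were in *Hoxa5*-/- replicate 1 of lung at E12.5, in which *Fos* (gap over range 0.919), *Nr4a1* (0.913), *Egr1* (0.902) and *Atf3* (0.877) were the highest of the group. *Zfp36* was high in wt replicate 3 of trachea (0.834; 42.1 TPM against 24.9 to 27 TPM in its group) and in wt replicate 3 of lung at E15.5 (0.873; 37.1 TPM against 21.9 to 23.1 TPM). *Egr1* was high in wt replicate 1 of lung at E15.5 (0.907; 28.7 TPM against 22 to 22.9 TPM), and *Junb* in wt replicate 2 of somites at E12.5 (0.976; 13 TPM against 8.67 to 9.03 TPM). In *Hoxa5*-/- lung at E15.5, *Fos* was low in replicate 1 (0.959; 4.09 TPM against 4.66 to 6.87 TPM) and *Jun* high in replicate 2 (0.835; 132 TPM against 67.1 to 99.8 TPM). The gaps are in scaled counts, and those of *Fos* and *Jun* in this group are narrower in TPM. In *Hoxa5*-/- iBAT, *Zfp36* was low in replicate 2 (0.808; 7.50 TPM against 9.04 to 9.92 TPM). The same test did not mark any member in wt replicate 2 of diaphragm. Groups of 3 were not tested, and no cause of these gaps was tested.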

How the results depend on the processing

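The replicate numbers were not taken as pairs, because same-numbered libraries deviated together with r from -0.19 to 0.56. In no context did every pair pass 0.1, although 4 of 5 did in iBAT and 3 of 4 in diaphragm, where r reached 0.53. Pairing in diaphragm is thus not excluded. A block by the leading number of the iBAT names left 0 members called there. The replicate block nevertheless called 1 member in the diaphragm (*Nr4a1*) in place of 0, as did DESeq2 and 1 fit for the table, and 0 to 1 were called with single libraries left out, there and in somites at E10.5. The block also lost *Nr4a1* between wt diaphragm and lung at E15.5. For the interactions of diaphragm with lung at E15.5 and with trachea, DESeq2 and the block called 1 member each and leaving out libraries 0 to 1, and between the somite stages leaving out libraries called 0 to 3. With *Hoxa5*-/- in place of wt libraries, 5 members in place of 9 were called between diaphragm and lung at E12.5, and 4 differences turned: *Nr4a1* for diaphragm against lung at E15.5 (-0.49) and at E12.5 (-0.60), *Fos* between the lung stages (-0.25) and *Atf3* for trachea against lung at E12.5 (-0.55). With single libraries left out, *Fos* in lung at E12.5 ran from -0.18 (without *Hoxa5*-/- replicate 1, a reversal) to 2.34. Of 28 relations 9 passed, but 1 did without the 2 farthest libraries and 3 without *Hoxa5*-/- replicate 1 of lung at E12.5, the latter chosen after seeing the data. The cause of these changes was not tested. Of 161 alternatives for single members between genotypes 155 left the call as it was, and of 661 between wt contexts 627 did. With single libraries left out, the median percentile of spread kept between 54.9 and 61.7 in the first table and 43.5 and 46.8 in the second. The lowest value of the first table, 54.9, was that without *Hoxa5*-/- replicate 1 of lung at E12.5. The measure of spread mattered more. With log2(TPM + 1) the median percentile was 76.2 in the first table and 51.6 in the second. With the biological coefficient of variation of edgeR, a spread beyond counting noise, it was 72.4 and 51.8. Of genes simulated with log2 changes of 1 and 2 between the diaphragm genotypes, edgeR called 64.5% and 94.5%, so differences of that size can be missed. The low counts of *Fosb* limit what can be said of it.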

Other observations

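Between stages more heat shock genes were called lower than higher at the later one. In wt lung, 1 of 10 higher and 6 lower were called at E15.5 against E12.5 with a median log2 difference of -0.81, and in wt somites 3 of 10 higher and 6 lower at E12.5 against E10.5 with a median of -0.63. *Hspb1*, a small chaperone abundant in muscle, had the largest rise of that list, by 1.56 ± 0.20 in lung and 3.07 ± 0.24 in somites, where *Hspa1a* and *Hspa1b* rose too. It was also the highest of the list in diaphragm against lung at E15.5 (4.0 ± 0.20). Of genes upstream of the response, 0 of 21 higher and 0 lower were called between the stages in lung and 3 of 21 higher and 1 lower in somites, where *Elk3*, a partner of serum response factor, rose by 1.08 ± 0.09. The kinase gene *Map2k1* was the highest of that list in diaphragm against trachea (1.48 ± 0.13).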
